A study of Mus musculus with 17 samples.

Results

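The DNA replication and G1/S genes are 45 mouse genes listed by symbol, which license, open and copy DNA, supply its nucleotides, rebuild chromatin behind the fork and admit a cell to S phase. All 45 had a row in both count tables, of 38293 and 55487 gene IDs, and all 45 passed the filter on low counts in each. The counts come from polyadenylated RNA of mouse lacrimal gland, which secretes the watery part of tears, and of organoids, gel-embedded cultures of its epithelial cells. There are 17 libraries in 7 groups, and the tables of 9 and 8 libraries were analysed apart.

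The first table holds uncloned wild-type organoids of lines 6, 7 and 8 in differentiation medium (DM, n = 3), the same lines in expansion medium (EM, n = 3) and gland tissue with the same numbers (n = 3). The second table holds clones labelled Pax6-KO in DM and in EM (n = 2 each) and wild-type (WT) clones in DM and in EM (n = 2 each). A clone is a single clonal line and has the same number in both media. Numbers shared by a KO and a WT clone are names only. Every culture was first grown in EM. Per the growth protocol, EM cultures were kept for 7 days and DM cultures had 5 days of DM after 2 days of EM. The series text gives the clones 7 days in each medium, so their time in DM is uncertain. The labels read here do not state the strain, sex or age of the mice or how the knockout was made. Lines and clones are the replicates, 3 lines or 2 clones in a group. The fits share an estimate of spread over all groups of a table, so p-values rest on that pooled spread. The main fits do not pair EM and DM of a line or clone, and a block for it was an alternative.

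Before S phase, the origin recognition complex, Cdc6 and Cdt1 load the ring of Mcm2 to Mcm7 onto DNA, and Cdc45 and the GINS complex then turn that ring into a moving helicase. Cyclin E with Cdk2 drives this step, and most genes of the pathway are transcribed by E2F factors that the retinoblastoma proteins hold back in resting cells. Transcripts of the pathway are therefore a common sign of cells in late G1 and S phase, while most acinar cells of an adult gland are not dividing.

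Total counts ran from 12801473 to 19207469 in the first table and from 18282059 to 22500534 in the second. Levels are CPM, the usual per-library scaling of counts, here on library sizes after TMM scaling (a trimmed mean of log ratios). Tests are edgeR's quasi-likelihood tests with Benjamini-Hochberg adjustment over all genes, called at 0.05. Shares of all genes set beside calls are for that adjusted threshold. None is given for counts at an unadjusted p under 0.05. The acinar markers Lpo and Car6 stood between 0.0366 and 1.82 CPM in uncloned DM and EM, against 3334 to 5451 CPM in the gland. The 5 basal epithelium markers summed to 5840 to 7507 CPM in DM and 3626 to 3905 CPM in EM, against 74.2 to 99.2 CPM in the gland. Fibroblast, endothelial and red cell markers were at 0 or summed to at most 1.62 CPM in uncloned organoids. Pax6 itself had 135 and 309 CPM in KO DM and 172 and 272 CPM in KO EM, against 219 and 280 CPM in WT DM and 245 and 276 CPM in WT EM. A gene-level count does not test for a short change within the gene, so the KO label rests on the submitters. Bulk RNA cannot tell fewer cycling cells from less RNA per cell, and this holds for every level below.

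Promoter windows from RefSeq (GRCm38.p6), 250 bases before each gene's start, were found for 36 of the 45 genes. They were searched on both strands for 4 E2F-type words, TTTCCCGC, TTTCGCGC, TTTGCCGC and TTTGGCGC, where 2 words may overlap. Where a gene had several windows, as did Uhrf1, Mcm7, Fen1, Lig1 and E2f2, only the first listed was counted. At least 1 word lay in 9 of the 36 windows (25%), against 517 of 27025 windows of all genes (1.91%). The stretches below are shown because Mcm6 and Mcm5 carry several words and Cdc6 and Cdk2 carry 1, while Ccne1, called higher in DM of WT clones, stands for the 27 windows with none. Those 27 include Uhrf1, Rrm2, Mcm2, Prim1, E2f1, Pold1 and Rfc5, which were called lower in DM of KO clones. Mcm5 was called lower there too and holds words, while Mcm4 and Pole, also called lower, had no window. Capitals mark the words, and each sequence runs 5′ to 3′ on the gene's own strand.
Mcm6 (chr1:128359741-128359820, minus strand): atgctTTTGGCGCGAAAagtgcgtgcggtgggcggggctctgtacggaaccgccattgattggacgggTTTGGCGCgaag
Mcm5 (chr8:75109322-75109401, plus strand): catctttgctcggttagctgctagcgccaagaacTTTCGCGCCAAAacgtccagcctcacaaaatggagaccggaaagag
Cdc6 (chr11:98907982-98908061, plus strand): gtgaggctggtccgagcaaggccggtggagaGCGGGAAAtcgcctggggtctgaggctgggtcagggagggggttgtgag
Cdk2 (chr10:128705148-128705227, minus strand): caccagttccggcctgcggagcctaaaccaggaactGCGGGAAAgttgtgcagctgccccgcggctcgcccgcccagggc
Ccne1 (chr7:38107535-38107614, minus strand): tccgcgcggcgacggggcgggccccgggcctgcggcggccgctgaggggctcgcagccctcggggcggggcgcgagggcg

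Mcm6 and Mcm5 held 3 and 2 words, overlapping in part. The other windows with a word were those of Orc1, Mcm7, Gins3, Pola1 and Rfc3. The CCAAT word lay in 22 of the 36 windows (61.1%), against 34.5% of all windows, and in 12 of 13 windows of G2/M genes (92.3%). The word TTTGAA, part of the element that mitotic genes use, lay in 4 of the 36 windows (11.1%), against 16.3% of all windows and 53.8% of the G2/M windows. A match is a description of letters and does not show binding.

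Levels set per kilobase of exon (CPM per kb) ranked the genes in uncloned EM. Pcna, the sliding clamp that holds polymerases on DNA, was highest at 29.1 ± 6.5 CPM per kb in DM and 35.1 ± 1.7 CPM per kb in EM, against 19.9 ± 4.9 CPM per kb in the gland (SD, n = 3 each). Mcm6 followed at 22.0 ± 0.98 in EM, then Uhrf1, which brings the DNA methyltransferase to new DNA, at 18.9 ± 1.6 and Rrm2, the S phase subunit of ribonucleotide reductase, at 18.4 ± 1.1. The last pair do not differ beyond their spread. At the low end in EM stood Orc1 at 1.21 ± 0.098 CPM per kb, E2f2 at 0.91 ± 0.22 and Dscc1, part of an alternative clamp loader, at 0.885 ± 0.13. E2f2 and Dscc1 overlapped in EM.

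**Figure D1:**
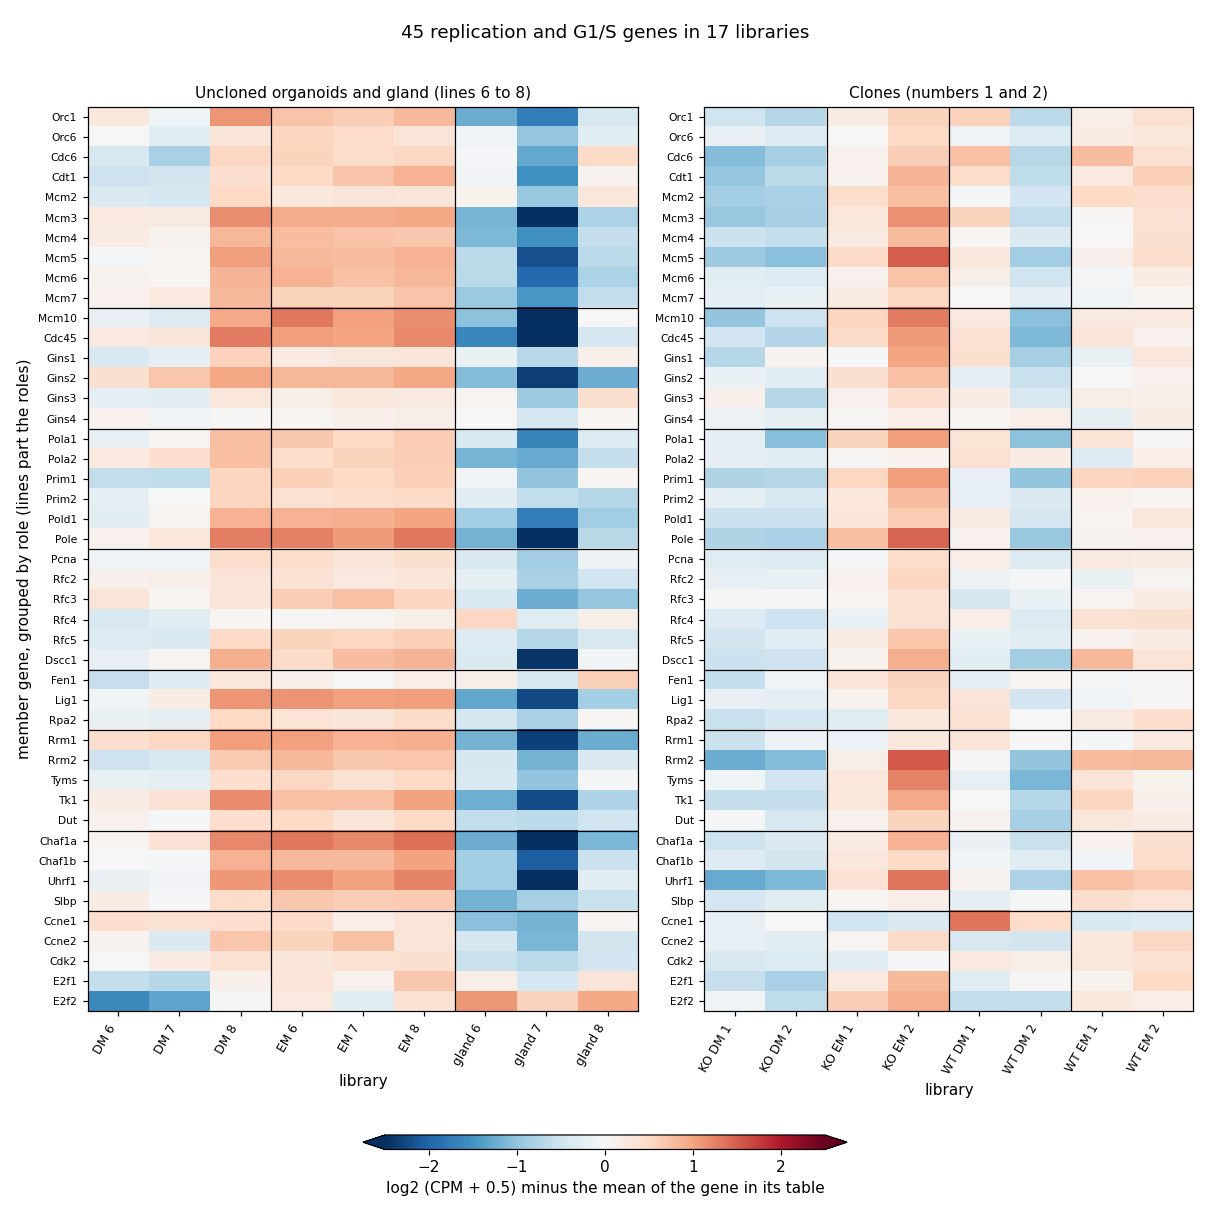
Heat map of the 45 genes (rows, grouped by role) in 17 libraries (columns), as log2 (CPM + 0.5) minus the gene's mean over its own table, with values beyond the scale at its end colours. In the first table the DM library of line 8 looks like the 3 EM libraries, and gland 7 has the darkest blue. In the second table the 2 KO DM libraries and the DM library of WT clone 2 are bluest, and the EM library of KO clone 2 is reddest.

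Uncloned EM organoids were compared with the gland to show what an expanding culture carries, and most of the replication machinery stood higher in EM. edgeR called 36 of 45 genes higher and 0 lower, where 37.4% of all genes tested were called higher and 37.4% lower. The same 36 were those with an unadjusted p under 0.05, and DESeq2 also gave 36 higher and 0 lower. The median change was 1.36 on the log2 scale, against 0.01 over all genes. For 38 genes every EM library lay above every gland, where 40.1% of all genes did so. With gland 7 left out, 33 genes were called higher, against 35.5% of all genes. Changes of Chaf1a, Pole, Gins2 and Cdc45, very low in gland 7, were then 2.60, 2.19, 2.27 and 2.07 on the log2 scale. Each was smaller than the value with all glands given below and stayed called. Scaling by total counts instead moved the median of all genes by 2.06 on the log2 scale, since 65.5% to 67.6% of gland counts fell on 10 genes. Under that scaling the 45 genes had a median of 3.42 and all were called higher, so directions against the gland are relative to TMM scaling. In DM against the gland the same shift was 1.98.

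Licensing genes, which mark origins for use, were called higher in EM for 8 of 10, where 37.4% of all genes were. Mcm6 stood at 106, 97.5 and 104 CPM in EM of lines 6, 7 and 8, against 36.2, 14.8 and 33.3 CPM in the glands (1.86 ± 0.28 on the log2 scale, edgeR adjusted p = 0.000105). No gland reached an EM library, and gland 7 was lowest. Mcm3 changed most within the group (2.27 ± 0.35, edgeR adjusted p = 0.000103). Mcm2 and Cdc6 did not pass, at 0.39 ± 0.30 (edgeR adjusted p = 0.252) and 0.62 ± 0.42 (edgeR adjusted p = 0.203).

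Mcm2 set the ring apart in the gland. Per kb it made up 7.81% to 8.67% of the sum of Mcm2 to Mcm7 in uncloned DM and 8.14% to 8.68% in uncloned EM, against 19.3% to 20.3% in the 3 glands. Its level was 4.91, 4.65 and 9.09 CPM per kb in DM and 7.69, 7.96 and 7.84 CPM per kb in EM, against 6.82, 3.28 and 7.73 CPM per kb in the gland. For Mcm5, which forms the gate of the ring with Mcm2, EM held 13.1 to 14.0 CPM per kb, against 1.55 to 4.80 CPM per kb in the gland. Glands and EM overlapped for Mcm2 and did not for the other 5 subunit genes. The values within a library share its depth, and the share was not tested.

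**Figure D2:**
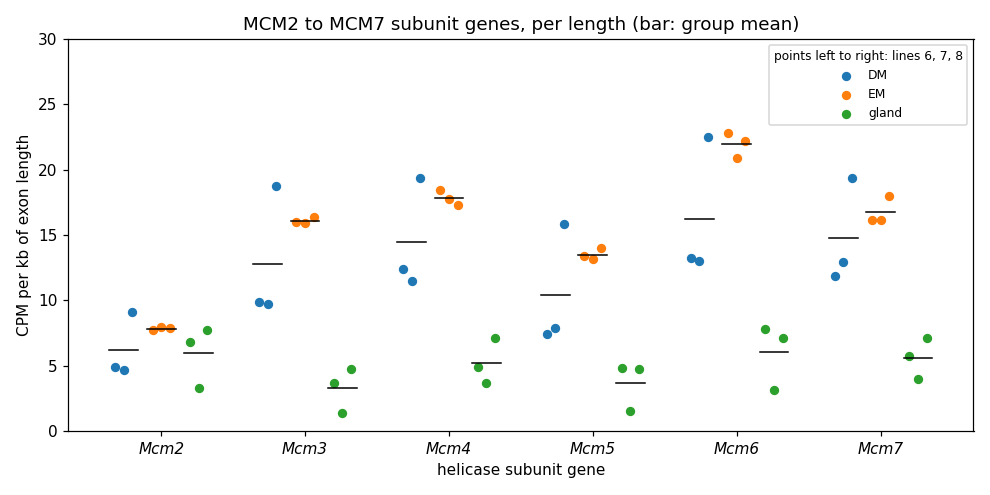
Points show CPM per kb of exon length of the 6 genes of the MCM ring in DM, EM and gland, with lines 6, 7 and 8 from left to right in each group and a bar at the group mean. Mcm2 lies between 7.69 and 7.96 in EM, close to 2 of the 3 glands, while the other subunits are well above the gland in every EM library.

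Helicase activation genes were called higher in EM for 3 of 6, a share not far from the 37.4% of all genes called higher. Gins2, a GINS subunit, stood at 10.8, 10.7 and 11.8 CPM in EM, against 2.49, 0.729 and 2.19 CPM in the glands (2.59 ± 0.30, edgeR adjusted p = 1.1e-05). Its groups were far apart, but 67.3% of its exon bases are shared with Gse1 on the other strand, and whether the counting used strand is not given. Gins4 barely differed, at 17.4, 18.1 and 18.3 CPM in EM, against 16.5, 12.03 and 17.1 CPM in the glands (0.23 ± 0.14, edgeR adjusted p = 0.148). Cdc45, called higher at 2.51 ± 0.50 (edgeR adjusted p = 0.000807), ranged from 0.365 to 4.76 CPM between glands.

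The 6 polymerase and primase genes were all called higher in EM, where 37.4% of all genes were. Pold1, the catalytic subunit of the lagging-strand polymerase delta, stood at 41.1, 41.9 and 44.9 CPM in EM, against 12.3, 6.38 and 11.96 CPM in the glands (2.05 ± 0.30, edgeR adjusted p = 7.6e-05). Pole, the catalytic subunit of leading-strand polymerase epsilon, stood at 36.2, 31.4 and 37.9 CPM in EM, against 6.21, 0.911 and 9.0 CPM in the glands (2.64 ± 0.47, edgeR adjusted p = 0.000313). Both were separated from the gland in every library. Prim1, the primase subunit that starts each DNA strand, had the smallest change of the group at 0.84 ± 0.35 (edgeR adjusted p = 0.0446). Its call ended when gland 6, gland 7 or any EM library was left out. Without gland 7 it gave 0.60 ± 0.36 (edgeR adjusted p = 0.159).

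Of the clamp and loader genes 5 of 6 were called higher, of the lagging-strand genes 2 of 3 and of the nucleotide supply genes 5 of 5. Over all genes 37.4% were called higher. Pcna stood at 87.8, 79.7 and 85.0 CPM in EM, against 49.7, 34.999 and 58.5 CPM in the glands (0.81 ± 0.18, edgeR adjusted p = 0.00184). Lig1, the ligase that joins Okazaki fragments, changed by 2.43 ± 0.35 (edgeR adjusted p = 5.7e-05). Rrm1, the large subunit of ribonucleotide reductase, stood at 166, 149 and 153 CPM in EM, against 35.9, 15.9 and 34.1 CPM in the glands (2.44 ± 0.25, edgeR adjusted p = 4e-06). For Pcna, Lig1 and Rrm1 no EM library overlapped a gland. Rfc4 and Fen1 gave -0.07 ± 0.20 and -0.10 ± 0.25 and did not pass (edgeR adjusted p = 0.753 and 0.741).

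All 4 genes for chromatin behind the fork were called higher, where 37.4% of all genes were. Chaf1a, the large subunit of the histone chaperone CAF-1, changed most of the 45 at 3.00 ± 0.41 (edgeR adjusted p = 4.5e-05), with 30.4, 28.04 and 31.7 CPM in EM, against 4.79, 0.911 and 5.14 CPM in the glands. Ubxn6 on the other strand shares 52.5% of its exon bases, so its level is uncertain. Uhrf1 stood at 82.6, 72.9 and 86.4 CPM in EM, against 19.5, 3.83 and 29.7 CPM in the glands (2.14 ± 0.49, edgeR adjusted p = 0.00191). Neither gene overlapped between groups.

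The lists beside the 45 also stood higher in EM, beside 37.4% of all genes called higher and 37.4% lower. Of 30 other replication genes 20 were called higher and 2 lower, with Dbf4, the regulatory subunit of the kinase that fires origins, at 2.69 ± 0.24 (edgeR adjusted p = 1.34e-06) and Topbp1, which brings the GINS complex to origins, at 1.73 ± 0.22 (edgeR adjusted p = 2.3e-05). Of 26 other G1/S genes 16 were called higher and 6 lower. The cyclin D2 gene Ccnd2 stood at 671, 518 and 521 CPM in EM, against 11.01, 16.2 and 13.9 CPM in the glands (5.38 ± 0.17, edgeR adjusted p = 3.05e-10). Rbl2, which encodes the pocket protein of resting cells, was lower in EM (-0.96 ± 0.09, edgeR adjusted p = 2.63e-06). All 15 G2/M genes were called higher, among them Cenpf at 4.38 ± 0.46 (edgeR adjusted p = 5.16e-06).

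Gland 7 was the lowest of the 3 glands for 43 of 45 genes, where this held for 32% of all genes, and gland 8 was the highest for 32, where this held for 34%. Summed over the 45, the glands had 619, 357 and 707 CPM. The 15 G2/M genes followed the same order, at 191, 73.8 and 276 CPM. The 5 macrophage markers summed to 206, 328 and 216 CPM and the 2 red cell markers to 165, 48.7 and 115 CPM in the same glands. Their part in the members' levels was not tested.

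E2f2 went the other way. This activating E2F stood at 0.974, 1.31 and 3.84 CPM in DM and 4.82, 3.25 and 5.26 CPM in EM, against 9.23, 6.20 and 8.36 CPM in the gland. Every gland was above every organoid library. DM was called lower than the gland at -1.94 ± 0.44 (edgeR adjusted p = 0.002), the single fall of that comparison, and EM gave -0.84 ± 0.42 (edgeR adjusted p = 0.091). A fit blocked by line called EM lower too, 1 gene of the 45, against 37.2% of all genes. Scaling by total counts put the DM value at 0.03 and it was no longer called. Under that scaling E2f2 was called higher in EM than in the gland, so its order is relative to TMM scaling. The red cell markers Hbb-bs and Hba-a1 were present in the glands and at 0 counts in all uncloned organoid libraries. Their part in E2f2 was not tested. E2f1 did not pass in EM against gland, at 0.35 ± 0.28 (edgeR adjusted p = 0.27).

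DM organoids still carried more of the machinery than the gland. edgeR called 27 of 45 higher and 1 lower, against 38.1% and 37.4% of all genes, with a median of 0.98 on the log2 scale. Licensing had 6 of 10 higher, polymerases and primase 5 of 6, and chromatin 4 of 4. Gins2 changed most (2.41 ± 0.30, edgeR adjusted p = 1.9e-05), at 7.79, 9.77 and 11.8 CPM in DM, against 2.49, 0.729 and 2.19 CPM in the gland. Without the DM library of line 8, singled out on its values in these genes, the counts were 24 higher and 4 lower, against 37.3% and 36.9% of all genes, and the 4 were E2f2, Rfc4, Fen1 and E2f1. Both comparisons use the same 3 glands, so they are not independent.

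Uncloned DM was then compared with EM to ask what the switch to differentiation medium did. All but 1 of the 45 genes had a negative change, but edgeR called only 3 lower (E2f1, Rfc5 and Slbp) and 0 higher, where 13.2% of all genes were called lower and 17.2% higher. Leaving out 1 library ended all 3 calls for lines 6 and 7 in DM and for lines 6 and 8 in EM, and without EM of line 7 only E2f1 was called. At an unadjusted p under 0.05 there were 10 genes, and DESeq2 called 3 lower and 0 higher. The median was -0.38 against 0.00 over all genes. E2f1, the activating E2F at the G1/S switch, stood at 6.51, 6.00 and 11.1 CPM in DM, against 13.04, 11.003 and 16.5 CPM in EM (-0.78 ± 0.26, edgeR adjusted p = 0.0406). DM of line 8 was just above the lowest EM library, and the other DM libraries were below all of EM. Rfc5, a clamp loader subunit, changed by -0.59 ± 0.20 (edgeR adjusted p = 0.0493) and Slbp, which binds the stem-loop of replication-dependent histone mRNAs, by -0.43 ± 0.14 (edgeR adjusted p = 0.0424). Adding the line as a block gave 12 lower calls, against 13.7% of all genes.

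The DM library of line 8 stood apart. For 43 of 45 genes, all but Gins4 and Ccne1, DM of line 6 and of line 7 both lay below all 3 EM libraries, where 32.5% of all genes did so. DM of line 8 was the highest DM library for 43 genes, all but Gins4 and Rfc3, where this held for 38.8% of all genes. It lay above all 3 EM libraries for 19 genes, against 36.4% of all genes, and below all 3 for 8, against 34.4%. All 3 DM libraries were below all 3 EM libraries for 7 genes, against 23.3% of all genes. Summed CPM of the 45 was 932, 961 and 1581 in DM of lines 6, 7 and 8, against 1537, 1456 and 1553 in EM.

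That library was singled out after its high values in these same genes were seen, so what follows without it is a description and no separate test. Without it edgeR gave 34 of 45 genes lower and 0 higher, against 18.4% and 19.8% of all genes, and the median was -0.69. Leaving out any other DM or EM library gave 0 lower calls, or 1 without EM of line 7. The 34 lay in every role, with 9 of 10 licensing, 3 of 6 helicase activation, 5 of 6 polymerase and primase, 3 of 6 clamp and loader, 3 of 3 lagging-strand, 4 of 5 nucleotide supply, 4 of 4 chromatin and 3 of 5 G1/S control genes.

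**Figure D3:**
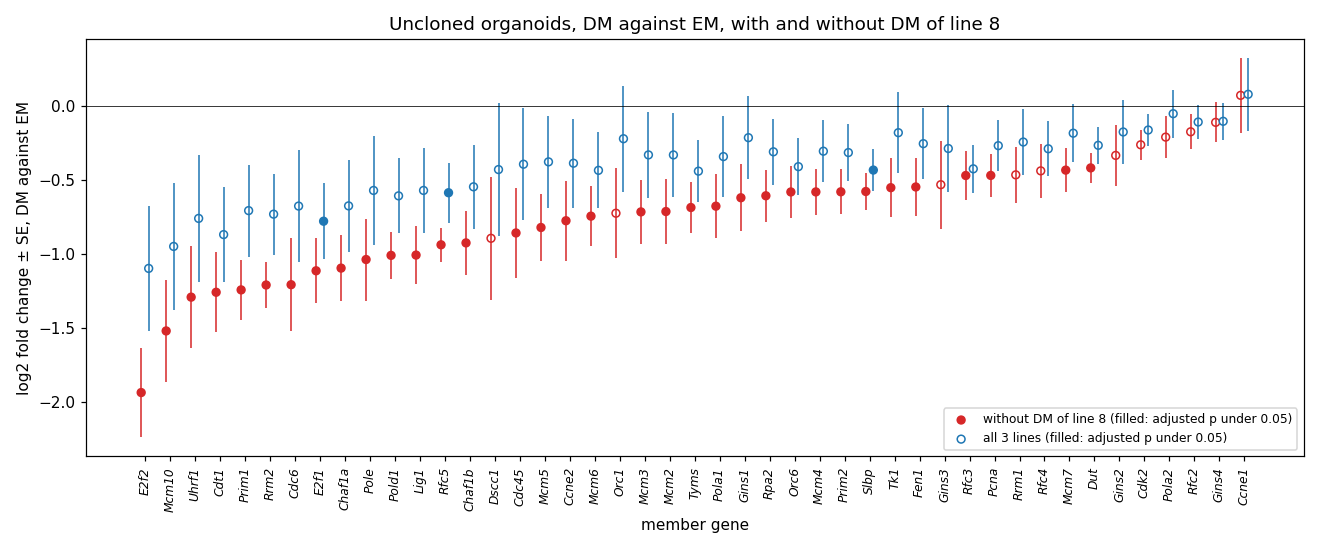
Log2 fold change with SE of each of the 45 genes in uncloned DM against EM, ordered by the value without the DM library of line 8 (red) and shown beside the value with all 3 lines (blue), with filled points for an adjusted p under 0.05. The red points are filled for 34 genes and the blue ones for 3, and the red ones describe a choice made on these values.

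With all lines the largest negative values were those of E2f2 (-1.10 ± 0.42, edgeR adjusted p = 0.0709), Mcm10 and Cdt1, and none of these passed without the block. Mcm10, which recruits the primase polymerase to the opened helicase, stood at 7.28, 6.65 and 16.9 CPM in DM, against 22.0, 17.9 and 19.8 CPM in EM. Lines 6 and 7 were far below EM and line 8 just below it (-0.95 ± 0.43, edgeR adjusted p = 0.12 with all lines, and -1.52 without DM of line 8). Cdt1, the licensing factor destroyed in S phase, stood at 6.36, 6.61 and 12.4 CPM in DM, against 13.5, 15.6 and 17.6 CPM in EM. All 3 DM libraries were lower (-0.87 ± 0.32, edgeR adjusted p = 0.0631 with all lines, and -1.26 without DM of line 8).

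Cdc6 stood at 4.77, 3.50 and 9.47 CPM in DM, against 9.80, 9.07 and 9.56 CPM in EM. Its line 8 value was within the EM range (-0.68 ± 0.38, edgeR adjusted p = 0.207 with all lines, and -1.21 without DM of line 8). Prim1 stood at 7.38, 7.34 and 17.2 CPM in DM, against 17.9, 16.6 and 17.8 CPM in EM, again with only line 8 inside the EM range (-0.71 ± 0.31, edgeR adjusted p = 0.111 with all lines, and -1.24 without DM of line 8). Rrm2 stood at 21.1, 23.0 and 47.8 CPM in DM, against 54.4, 48.8 and 49.5 CPM in EM (-0.73 ± 0.27, edgeR adjusted p = 0.066 with all lines, and -1.21 without DM of line 8). Uhrf1 stood at 31.6, 34.3 and 76.7 CPM in DM, against 82.6, 72.9 and 86.4 CPM in EM (-0.76 ± 0.43, edgeR adjusted p = 0.21 with all lines, and -1.29 without DM of line 8). Each of these had 2 low DM libraries and 1 at or just under the EM range.

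The same split held where DNA is made and joined. Pold1 stood at 18.7, 23.6 and 41.5 CPM in DM, against 41.1, 41.9 and 44.9 CPM in EM (-0.61 ± 0.25, edgeR adjusted p = 0.0932 with all lines, and -1.01 without DM of line 8). Lig1 stood at 29.3, 34.9 and 66.0 CPM in DM, against 67.3, 62.9 and 63.5 CPM in EM (-0.57 ± 0.29, edgeR adjusted p = 0.165 with all lines, and -1.01 without DM of line 8). Chaf1a stood at 12.5, 15.5 and 28.2 CPM in DM, against 30.4, 28.04 and 31.7 CPM in EM (-0.67 ± 0.31, edgeR adjusted p = 0.126 with all lines, and -1.09 without DM of line 8). Line 8 was within or next to the EM range in all 3. Rfc5 stood at 15.4, 15.2 and 27.8 CPM in DM, against 29.1, 28.7 and 30.1 CPM in EM, with every DM library under every EM library.

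Pcna, Rrm1 and Mcm6, which had high levels, did not pass either. Pcna stood at 61.9, 59.8 and 87.8 CPM in DM, against 87.8, 79.7 and 85.0 CPM in EM (-0.27 ± 0.17, edgeR adjusted p = 0.274 with all lines, and -0.47 without DM of line 8). Rrm1 stood at 109, 117 and 169 CPM in DM, against 166, 149 and 153 CPM in EM (-0.24 ± 0.22, edgeR adjusted p = 0.445 with all lines, and -0.47 without DM of line 8). Mcm6 stood at 61.9, 60.6 and 105 CPM in DM, against 106, 97.5 and 104 CPM in EM (-0.44 ± 0.26, edgeR adjusted p = 0.23 with all lines, and -0.74 without DM of line 8). Ccne1 was the 1 gene with a positive value (0.08 ± 0.25, edgeR adjusted p = 0.847 with all lines, and 0.07 without DM of line 8).

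**Figure D4:**
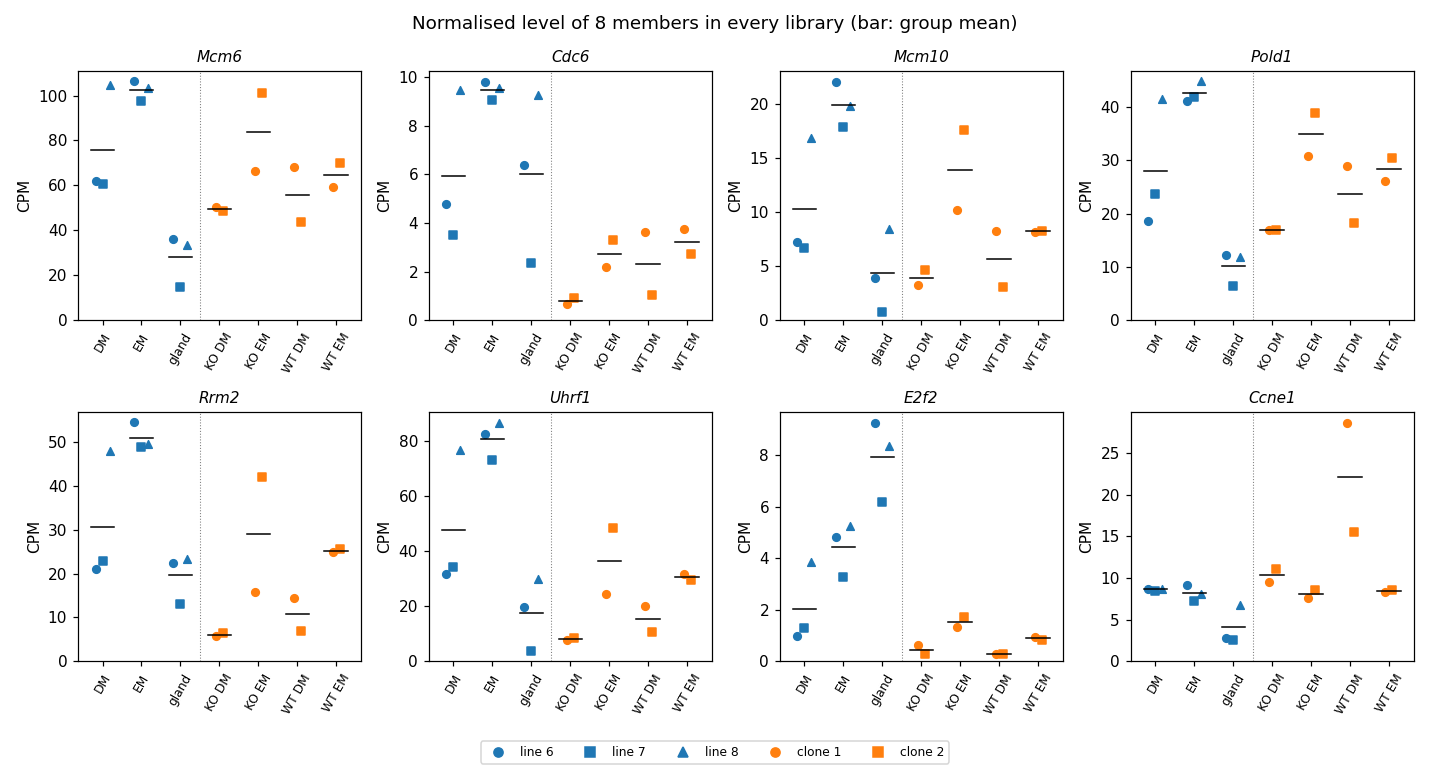
CPM of 8 genes in each library, with groups from left to right as uncloned DM, EM and gland, then KO DM, KO EM, WT DM and WT EM, a bar at each group mean and a marker shape for each line or clone. Line 8 (triangle) lies far above lines 6 and 7 in DM for all but Ccne1, and Ccne1 is highest in WT DM at 28.6 and 15.5 CPM.

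Differentiation markers gave a mixed picture of line 8. Aqp5, the water channel of lacrimal acini, stood at 20.0, 24.2 and 22.2 CPM in DM, against 1.99, 1.61 and 2.15 CPM in EM, so DM of line 8 lay with the other DM libraries. Smooth muscle actin Acta2, a myoepithelial marker, stood at 81.8, 85.8 and 186 CPM in DM, against 6.19, 5.78 and 5.26 CPM in EM, with line 8 highest. Mylk, of the same list, stood at 50.3, 58.4 and 34.3 CPM in DM, against 0.540, 0.731 and 0.372 CPM in EM. The 5 basal markers summed to 6953, 7507 and 5840 CPM in DM, with line 8 lowest and still above every EM library. The 5 luminal or duct epithelium markers summed to 6878, 7642 and 6079 CPM in DM, against 4512, 4422 and 4946 CPM in EM. In both sums DM of line 8 was the DM library closest to EM. Their part in the members' levels was not tested.

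CDK inhibitors also moved in line 8. Cdkn1a, which encodes p21, stood at 186, 185 and 146 CPM in DM, against 110, 91.0 and 109 CPM in EM (0.74 ± 0.11, edgeR adjusted p = 0.000539). All 3 DM libraries were above EM, with line 8 closest to it. Cdkn2b, which encodes p15, stood at 39.2, 44.8 and 23.8 CPM in DM, against 20.8, 20.2 and 18.8 CPM in EM (0.85 ± 0.25, edgeR adjusted p = 0.0235). Of the 7 inhibitors 2 were called higher and 3 lower, where 17.2% and 13.2% of all genes were. The lower ones were Cdkn2c (p18), Cdkn1b (p27) and Cdkn1c (p57). Against the gland 6 of 7 were higher in EM, where 37.4% of all genes were called higher. Among the 6 was Cdkn1a at 5.07 ± 0.16 (edgeR adjusted p = 4.39e-10).

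Of 30 other replication genes, not among the 45, 4 were called lower in DM against EM and 0 higher. That is a share near the 13.2% of all genes called lower, where 17.2% were called higher. Among the 4 were Rfc1 (-0.36 ± 0.10, edgeR adjusted p = 0.0175) and Pold2 (-0.70 ± 0.21, edgeR adjusted p = 0.0269). Without DM of line 8 there were 16 lower and 1 higher, against 18.4% and 19.8% of all genes. Of 26 other G1/S control genes, 1 was called higher, Fbxw7, a subunit of the ligase that degrades cyclin E (0.74 ± 0.14, edgeR adjusted p = 0.0029). Lower were E2f5 and the repressor E2f7, no more than the share of all genes. Without DM of line 8 the counts were 2 higher and 10 lower, against the same 19.8% and 18.4% of all genes. Of 15 G2/M genes edgeR called 0 with all lines (2 at an unadjusted p under 0.05, median -0.60) and all 15 lower without DM of line 8. Their summed level was 609, 792 and 1511 CPM in DM of lines 6, 7 and 8, against 1587, 1402 and 1573 CPM in EM.

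DM was set against EM within each line or clone, as a difference of log2 CPM between 1 library and 1 library, with no test. The median over the 45 was -0.64 in line 6, -0.71 in line 7 and 0.01 in line 8. It was -0.66 and -1.20 in KO clones 1 and 2, and -0.04 and -0.77 in WT clones 1 and 2. Over all genes the medians were between -0.01 and 0.01. At or under -0.5 were 32 genes in line 6, against 15.9% of all genes, 30 in line 7, against 16.9%, and 1 in line 8, against 10.2%. KO clones had 27 and 38, against 15.5% and 15.1%, and WT clones 10 and 31, against 18.2% and 16.6%. Line 8 and WT clone 1 were thus the cultures in which the median stayed near 0.

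The G2/M genes fell in the cultures where the 45 did, and in WT clone 1 as well. Their within-line medians were -1.31, -0.79 and -0.01 in lines 6, 7 and 8, -2.09 and -2.05 in KO clones 1 and 2, and -0.95 and -2.18 in WT clones 1 and 2. In WT clone 1 all 15 G2/M genes lay below EM, while 25 of the 45 did. Line 8 had both lists near 0. Summed G2/M levels were 284 and 100 CPM in WT DM, against 576 and 464 CPM in WT EM, and the 45 summed to 966 and 711 CPM in WT DM, against 950 and 1052 CPM in WT EM.

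**Figure D5:**
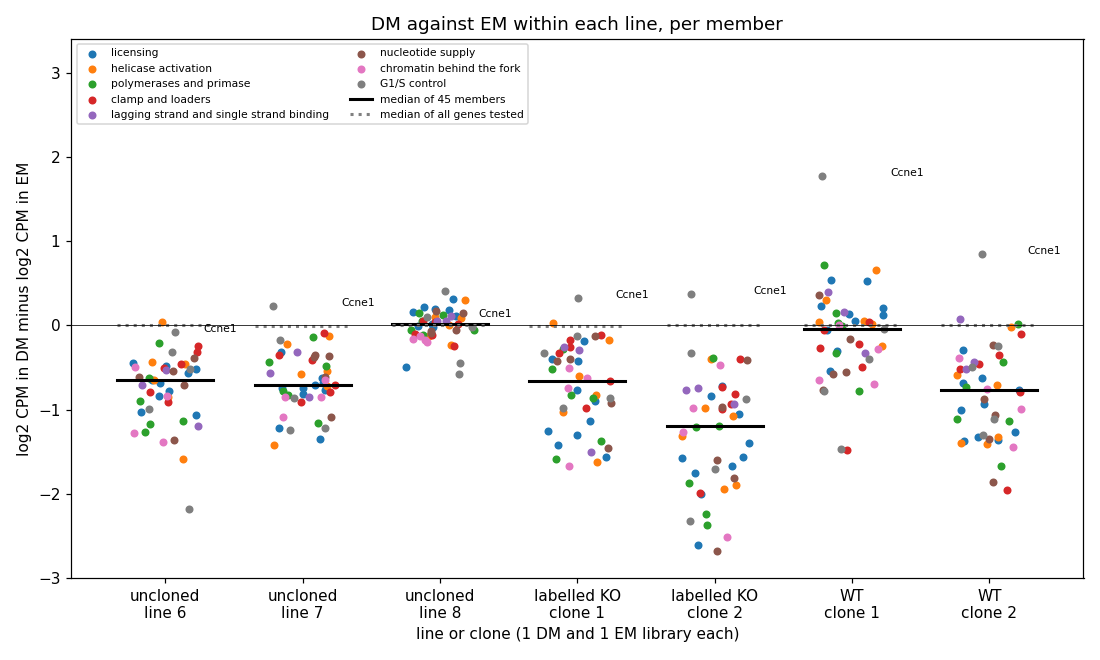
Each point is 1 of the 45 genes, plotted as log2 CPM in DM minus log2 CPM in EM of the same line or clone and coloured by role, with the median of the 45 (solid bar) and of all genes (dotted). Medians are 0.01 in uncloned line 8 and -0.04 in WT clone 1, and between -0.64 and -1.20 in the other 5 cultures, and Ccne1 is labelled.

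In labelled KO clones edgeR called 10 of 45 genes lower in DM than EM and 0 higher, against 3.41% and 4.94% of all genes. The 10 were Mcm2, Mcm4 and Mcm5 of the ring, the polymerase genes Pold1, Pole and Prim1, Rfc5, Rrm2, Uhrf1 and E2f1. The median was -0.96, and 31 genes had an unadjusted p under 0.05. With the clone as a block 22 were called lower, against 7.12% of all genes. DESeq2 called 21 lower and 0 higher, against 2.85% of the 28104 genes it tested without the edgeR filter. Low-count genes are among those, so this share and the edgeR shares are not on 1 basis. For 41 genes, all but Gins1, Gins3, Rrm1 and Ccne1, both KO DM libraries lay below both KO EM libraries, where 29.5% of all genes did so.

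Rrm2 fell most, at 5.70 and 6.48 CPM in KO DM, against 15.8 and 42.1 CPM in KO EM (-2.25 ± 0.51, edgeR adjusted p = 0.0427). The DM values were close together, and the EM values were not. Uhrf1 stood at 7.54 and 8.39 CPM in KO DM, against 24.3 and 48.3 CPM in KO EM (-2.19 ± 0.40, edgeR adjusted p = 0.0234). Mcm2 stood at 20.4 and 21.0 CPM in KO DM, against 50.7 and 63.1 CPM in KO EM (-1.46 ± 0.18, edgeR adjusted p = 0.00823). For both genes each clone's DM library lay below both EM libraries. Leaving out any 1 of the 4 KO libraries brought the count of 10 to between 0 and 3.

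In WT clones fewer passed. edgeR called 2 lower in DM than EM, Mcm2 and Slbp, and 1 higher, Ccne1, against 6.13% and 9.61% of all genes, with a median of -0.42. Mcm2 stood at 36.4 and 26.4 CPM in WT DM, against 52.9 and 50.6 CPM in WT EM (-0.72 ± 0.18, edgeR adjusted p = 0.0359). Slbp stood at 27.0 and 30.9 CPM in WT DM, against 43.8 and 40.5 CPM in WT EM (-0.54 ± 0.12, edgeR adjusted p = 0.0266). Neither overlapped between media. Leaving out either WT EM library ended both calls, leaving out DM of WT clone 1 ended that of Slbp, and leaving out DM of WT clone 2 ended that of Mcm2. A fit of the WT libraries alone called none of the 45. With the clone as a block 8 were called lower, against 10.7% of all genes. Both WT DM libraries lay below both WT EM libraries for 22 genes, against 29.3% of all genes.

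The DM library of WT clone 1 stood apart. It was the highest of the 4 DM clone libraries for 35 of 45 genes, where this held for 29.2% of all genes. Mcm3 stood at 31.6 and 13.7 CPM in WT DM of clones 1 and 2, against 21.7 and 27.5 CPM in WT EM. Clone 1 was above both EM libraries and clone 2 below both. The DM library of WT clone 1 was singled out on its high values in these same genes. What follows without it is a description and no separate test. With that DM library left out, 2 genes were called lower (Mcm2 and Prim1) and 0 higher, against 3.39% and 6.01% of all genes, and the median was -0.65. The lone remaining DM library is then assumed to vary as the other groups do.

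Dscc1 had the largest negative change in WT clones but did not pass, at 0.595 and 0.228 CPM in WT DM, against 1.83 and 1.17 CPM in WT EM (-1.83 ± 0.63, edgeR adjusted p = 0.094). It is among the lowest of the 45 in these libraries. Prim1 stood at 5.72 and 3.13 CPM in WT DM, against 9.90 and 10.2 CPM in WT EM (-1.18 ± 0.33, edgeR adjusted p = 0.0536). Both media were apart in each gene.

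Ccne1, which encodes the cyclin E1 that activates Cdk2 at the G1/S boundary, was the 1 member called higher in DM of WT clones, where 41 of the 45 had a negative value. It stood at 9.55 and 11.1 CPM in KO DM and 7.63 and 8.50 CPM in KO EM, against 28.6 and 15.5 CPM in WT DM and 8.34 and 8.58 CPM in WT EM. WT DM was above every other clone library. DM against EM was 1.38 ± 0.29 in WT clones (edgeR adjusted p = 0.0218) and 0.35 ± 0.29 in KO clones (edgeR adjusted p = 0.521). KO against WT in DM was -1.10 ± 0.29 (edgeR adjusted p = 0.0735), and the interaction of label and medium was -1.03 ± 0.41 (edgeR adjusted p = 0.592). Leaving out WT clone 1 in DM gave 0.87 ± 0.21 in WT clones (edgeR adjusted p = 0.0532), and leaving out WT EM of clone 1 or of clone 2 gave 1.36 ± 0.40 or 1.40 ± 0.40 (edgeR adjusted p = 0.111 or 0.0926), so each ended the call. In uncloned organoids it stood at 8.71, 8.50 and 8.71 CPM in DM and 9.22, 7.24 and 8.11 CPM in EM, against 2.84, 2.55 and 6.81 CPM in the gland.

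Ccne2, the other cyclin E gene, stood at 2.31 and 2.18 CPM in KO DM and 2.93 and 4.07 CPM in KO EM, against 1.97 and 1.88 CPM in WT DM and 3.44 and 4.17 CPM in WT EM. Every clone DM library was below every clone EM library, although neither change passed (-0.98 ± 0.30, edgeR adjusted p = 0.0727 in WT clones and -0.64 ± 0.30, edgeR adjusted p = 0.254 in KO clones). Their partner Cdk2 changed little between media, at -0.15 ± 0.13 in WT clones and -0.23 ± 0.13 in KO clones (edgeR adjusted p = 0.492 and 0.326).

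CDK inhibitors moved with DM in the clones too. Cdkn2b stood at 117 and 142 CPM in KO DM and 54.0 and 54.7 CPM in KO EM, against 109 and 124 CPM in WT DM and 48.7 and 58.7 CPM in WT EM. It was higher in DM for both labels, at 1.25 ± 0.14 in KO clones (edgeR adjusted p = 0.00578) and 1.12 ± 0.14 in WT clones (edgeR adjusted p = 0.0045). Cdkn1a rose in both as well, by 0.74 ± 0.11 in KO clones (edgeR adjusted p = 0.0149) and 0.64 ± 0.11 in WT clones (edgeR adjusted p = 0.0129), and in WT clone 1 it stood at 334 CPM in DM, against 206 CPM in EM. Cdkn2c fell in both, by 1.60 on the log2 scale in KO clones (edgeR adjusted p = 0.00541) and by 1.18 in WT clones (edgeR adjusted p = 0.0064).

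Of the 30 other replication genes 7 were called lower in DM in KO clones, where 3.41% of all genes were. In WT clones 2 of 30 were, a share near the 6.13% of all genes, and 0 were called higher for either label. Ticrr, which helps load Cdc45, gave -2.40 ± 0.45 (edgeR adjusted p = 0.0253) and the checkpoint adaptor Clspn -2.56 ± 0.49 (edgeR adjusted p = 0.0276) in KO clones. Dnmt1, the maintenance methyltransferase that Uhrf1 recruits, was lower in both, at -0.80 ± 0.16 in KO clones (edgeR adjusted p = 0.0298) and -0.65 ± 0.16 in WT clones (edgeR adjusted p = 0.036). G2/M genes were called lower for 9 of 15 in KO clones and 4 of 15 in WT clones. Cenpf, a centromere protein of that list, gave -2.54 ± 0.47 in KO clones (edgeR adjusted p = 0.025) and -1.82 ± 0.46 in WT clones (edgeR adjusted p = 0.0399).

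KO and WT clones were compared in each medium to ask whether the label went with a change in the machinery. In EM edgeR called 0 of 45 higher and 0 lower, against 5.38% and 4.41% of all genes, with a median of 0.26. At an unadjusted p under 0.05 there were 4 genes, with no share of all genes set beside them. DESeq2 called 1 higher, Pole, against 3.88% of the 28104 genes it tested without the edgeR filter. Pole stood at 15.05 and 24.8 CPM in KO EM, against 9.28 and 9.38 CPM in WT EM (1.10 ± 0.39, edgeR adjusted p = 0.125), with no overlap. The EM library of KO clone 2 was the highest of the 4 EM clone libraries for 36 genes, where this held for 26.8% of all genes. Summed over the 45, KO EM had 952 and 1365 CPM, against 950 and 1052 CPM in WT EM.

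In DM edgeR again called 0 higher and 0 lower, against 2.39% and 3.08% of all genes, with a median of -0.31. At an unadjusted p under 0.05 there were 8 genes, with no share of all genes set beside them. DESeq2 called 2 lower, Ccne1 and Cdk2, against 3.11% of the 28104 genes it tested without the edgeR filter. Both KO DM libraries lay below both WT DM libraries for 20 genes, against 26.3% of all genes. Cdc6 had the largest difference, at 0.667 and 0.903 CPM in KO DM, against 3.61 and 1.02 CPM in WT DM (-1.57 ± 0.62, edgeR adjusted p = 0.183). The KO values lay just under WT clone 2 and far under WT clone 1. With WT clone 1 in DM left out, the median over the 45 was 0.01. That library was singled out for its high values in these genes, so leaving it out raises the median by the choice itself. The value is a description and no separate test.

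For Cdk2, the kinase that cyclin E activates, KO and WT libraries did not overlap in either medium, but neither difference passed. It stood at 21.2 and 22.0 CPM in KO DM and 23.2 and 27.7 CPM in KO EM, against 33.2 and 31.0 CPM in WT DM and 34.2 and 36.8 CPM in WT EM. Every KO library was below every WT library. The differences were -0.57 ± 0.13 in DM (edgeR adjusted p = 0.0529) and -0.48 ± 0.13 in EM (edgeR adjusted p = 0.0612). The same clones supply both media.

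Rpa2 and Pola2 stood lower in KO DM without passing. Rpa2, a subunit of the single-strand binding protein, stood at 7.34 and 7.92 CPM in KO DM, against 14.4 and 10.9 CPM in WT DM (-0.73 ± 0.25, edgeR adjusted p = 0.139). Pola2, the accessory subunit of the primase polymerase, stood at 21.6 and 20.8 CPM in KO DM, against 33.6 and 29.2 CPM in WT DM (-0.57 ± 0.18, edgeR adjusted p = 0.113). The groups were apart for both genes. E2f2 had the largest positive difference, 0.65 ± 0.57 (edgeR adjusted p = 0.532), at 0.616 and 0.266 CPM in KO DM, against 0.275 and 0.285 CPM in WT DM, and its groups overlapped.

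Among the other lists, Rbl1, which encodes the pocket protein p107, was called higher in KO EM, at 41.2 and 49.6 CPM in KO EM, against 22.4 and 23.9 CPM in WT EM (0.97 ± 0.13, edgeR adjusted p = 0.00917). It then stood at 25.9 and 24.2 CPM in KO DM, against 25.5 and 24.1 CPM in WT DM, and the groups were close. Donson, which helps assemble the helicase, stood at 6.21 and 5.84 CPM in KO DM, against 11.1 and 14.1 CPM in WT DM (-1.06 ± 0.21, edgeR adjusted p = 0.0395). Cdkn1c was the 1 inhibitor called lower in KO EM (-4.09 ± 0.58, edgeR adjusted p = 0.0106), at 0.202 and 0.104 CPM in KO EM, against 1.87 and 3.56 CPM in WT EM.

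Some markers moved with the label beside these values. Aqp5 stood at 0.308 and 0.0531 CPM in KO DM, against 20.9 and 29.6 CPM in WT DM. In EM it stood at 1.06 and 1.51 CPM for KO and 4.46 and 3.61 CPM for WT. The 5 acinar markers summed to 4.41 and 6.96 CPM in KO DM, against 22.8 and 31.9 CPM in WT DM. Aqp5 made up most of the WT DM sums, and the rest of the list together was higher in KO DM. In EM the sums overlapped, at 4.34 and 9.02 CPM for KO and 8.21 and 5.82 CPM for WT. The 5 basal epithelium markers summed to 8363 and 12040 CPM in KO DM and 7797 and 10640 CPM in KO EM, against 8141 and 7795 CPM in WT DM and 6911 and 6459 CPM in WT EM. The macrophage list was carried by Cd68, with 31.0 to 63.3 CPM in KO libraries, against 96.7 to 191 CPM in WT libraries, while Adgre1 and C1qa had 0 counts in all 8. The part of these in the members' levels was not tested.

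The interaction asks whether the step between media differed between labels. No gene of the 45 was called (0 higher and 0 lower by edgeR and by DESeq2, with 8 at an unadjusted p under 0.05), and over all genes edgeR called 0% in either direction. With the clone as a block the members again had 0 calls, against 0.042% of all genes higher and 0.448% lower. The median over the 45 was -0.51. Pole had the largest value at -1.61 ± 0.55 (edgeR adjusted p = 0.537) and Ccne2 the largest positive one at 0.34 ± 0.43 (edgeR adjusted p = 0.927). Only 2 clones per label entered the fit.

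Fen1, the nuclease that trims Okazaki fragments, could not be followed across the tables. It stood between 14.5 and 33.3 CPM in the first table and between 0.308 and 1.30 CPM in the second, where it had 6 to 25 counts. Mean EM levels were 32.0 times as high in uncloned organoids as in WT clones, where this ratio was 0.63 to 4.99 for the other 44. The antisense gene Gm10143 overlaps 78.8% of its exon bases, and the annotation behind each table is not given. Its values in the clones are uncertain, and leaving it out moved the within-line medians by 0.0174 at most.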

How the data were processed

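RNA of gland, uncloned organoids and clones was sequenced in 17 libraries. The deposited values are raw gene counts, made with STAR and featureCounts on GRCm38 per the submitters' processing notes, whose versions and strand setting were not given. Both tables were analysed apart with edgeR 4.0.16 (R 4.3.3): filterByExpr, TMM scaling, a quasi-likelihood fit on all libraries of a table, and Benjamini-Hochberg adjustment over 13713 genes in the first table and 14282 in the second, with an adjusted p under 0.05 as the call. Fits ran 8 comparisons. DESeq2 1.42.0 was an alternative, beside total-count scaling, no filter, only the groups compared, a replicate block, and each library left out. The fit was tested on simulated data. Log2 CPM for differences within a line used a prior count of 2, or 0.5 as an alternative. SE comes from the fold change and the F statistic. Gene symbols and exon lengths came from GENCODE, and promoter windows from RefSeq.

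The members and lists were chosen with earlier results of these data known. Values in every library are given for the most abundant member of each role, the member with the largest change in uncloned DM against EM and in KO against WT clones in DM, the largest rise and fall of each comparison, and members called against the majority. Some further members and list genes were named after their values were seen. Numbers pair EM and DM of a line or clone by the labels. As a check, each library's deviations from its group were correlated across genes. Lines 6, 7 and 8 gave 0.18, 0.12 and 0.09 for DM with EM, and organoids with gland gave -0.07 to 0.08. DM with EM gave 0.51 in KO clones and 0.60 in WT clones, while KO with WT of 1 number gave 0.01 and 0.02.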

Additional observations from a re-analysis of the deposited data

Results flagged for a closer look

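Pola2, the accessory subunit of the primase polymerase, moved in opposite directions between the labels. Its DM value minus its EM value (log2 CPM) was -0.28 and -0.39 in KO clones 1 and 2, against 0.71 and 0.02 in WT clones 1 and 2, a difference of means of -0.70. That opposition of signs is untested in itself. The interaction fitted by edgeR was -0.68 ± 0.25 and did not pass (edgeR adjusted p = 0.558). WT clone 2 lay close to 0.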

How the results depend on the processing

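Of the values of single members, 880 kept their direction and their side of the threshold over the alternatives run, 89 kept the direction and no longer passed, and 1 reversed. Of the counts, 158 stayed within 1.5 times and 43 did not. The reversal was E2f2 in DM against gland, 0.034 under total-count scaling, where 44 members were called higher and 0 lower. Calls lower in EM against gland came to 1 with only the groups compared, to 1 when DM of line 8 was dropped from the fit (an alternative chosen after seeing the data) and to 1 with the line as replicate block. For DM against gland the block gave 2 lower, and leaving out single libraries gave 1 to 4. For uncloned DM against EM, lower calls were 6 under total-count scaling, 8 with no filter and 12 with the block, and 0 to 34 with 1 library left out, where 34 is the value without DM of line 8 and leaving out any other library gave 0 or 1. In WT clones the 1 higher call became 0 with only the groups compared and 0 to 1 with 1 library left out. Lower calls there were 5 by DESeq2, 7 with no filter, 0 with only the groups compared, 8 with the block and 0 to 2 with 1 library left out. In KO clones, lower calls were 21 by DESeq2, 25 with no filter, 16 with only the groups compared, 22 with the block and 0 to 3 with 1 library left out. For KO against WT in EM, higher calls were 1 by DESeq2 and 3 with no filter. In DM, lower calls were 2 by DESeq2, 10 with no filter and 1 (Cdk2) with clone number as replicate block, although numbers do not pair KO with WT clones, and 0 to 2 with 1 library left out, 2 being without WT DM of clone 2. The interaction had 4 lower calls with no filter. The block moved no other count of calls by more than 1.5 times. The cause of these shifts was not tested beyond the libraries named. These counts show how calls move between settings. Where the share of all genes under a setting is not given above, no excess over all genes is read from a count. With 2 clones a label, a difference that misses the threshold is not shown to be absent, and low-count members such as Dscc1 and E2f2 in the clones are least precise.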
